A study of Mus musculus with 6 samples.

Results

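The genes described here are the EGF family ligands *Areg*, *Ereg*, *Hbegf*, *Tgfa*, *Btc*, *Nrg1* and *Nrg2* and the ErbB receptors *Egfr*, *Erbb2* and *Erbb3*. They were chosen by name and found through the gene identifiers of the count table, which held all 10 among its 27179 genes. Bulk RNA-seq compared CD34hi with CD34lo fibroblasts from the mammary glands of pubertal FVB/N mice (FVB/NJ in the methods of the study), 6 weeks of age, with no treatment or transgene named for either group. Each of 3 pools of 2 mice gave both populations, gated as Lin-CD24-Pdgfrα+, for a total of 3 CD34hi and 3 CD34lo libraries. Within the hierarchy proposed by the study, CD34hi cells are mesenchymal progenitors and CD34lo cells are more specialized fibroblasts, and the comparison asks how their transcriptomes differ. A pool averages its mice, so variation between single animals was not measured.

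EGF family ligands are made as membrane-bound precursors and released by metalloproteases, after which they bind ErbB receptors on the same or neighboring cells. The receptors act as pairs: EGFR binds amphiregulin, epiregulin, HB-EGF, TGFα and betacellulin, ErbB3 and ErbB4 bind neuregulins, and ErbB2 has no known ligand of its own but is the favored partner of the others. In the pubertal mammary gland, amphiregulin from luminal cells is the classical mediator of estrogen-driven duct growth, and it acts through EGFR in the stroma.

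All the ligands share the EGF motif, a stretch with 6 cysteines that form 3 disulfide bridges and make up the part that binds the receptor. The coding bases of this motif are shown for ligands on both sides of the result, *Ereg* and *Tgfa*, which differed between the populations, and *Areg* and *Btc*, which did not pass the test, with *Nrg1* as a neuregulin. The 6 cysteine codons are in capitals, and the bases come from GENCODE transcripts on GRCm38, read 5′ to 3′ in the coding direction and split by an intron in the genome.
Areg: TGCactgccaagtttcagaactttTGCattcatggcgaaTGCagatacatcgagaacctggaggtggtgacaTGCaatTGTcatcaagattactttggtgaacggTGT
Ereg: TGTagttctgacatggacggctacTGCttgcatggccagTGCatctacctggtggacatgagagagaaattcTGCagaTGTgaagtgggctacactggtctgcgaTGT
Tgfa: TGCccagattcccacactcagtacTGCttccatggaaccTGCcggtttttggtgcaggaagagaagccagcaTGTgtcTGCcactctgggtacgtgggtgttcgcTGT
Btc: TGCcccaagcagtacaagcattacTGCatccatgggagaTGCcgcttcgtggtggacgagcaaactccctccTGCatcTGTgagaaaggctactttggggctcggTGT
Nrg1: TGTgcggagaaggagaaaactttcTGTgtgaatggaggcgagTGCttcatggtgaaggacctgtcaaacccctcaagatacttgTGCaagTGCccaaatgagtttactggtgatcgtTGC
These lay at chr5:91143614-91144364 (+), chr5:91088496-91089111 (+), chr6:86263200-86269960 (+), chr5:91362421-91366197 (-) and chr8:31837698-31849398 (-), respectively. In *Areg*, *Ereg*, *Hbegf*, *Tgfa* and *Btc* the motif was split over exons 3 and 4, and its cysteine codons were spaced by 7, 4, 10, 1 and 8 codons. The spacing in *Nrg1* was 7, 5, 13, 1 and 8 codons, so that its motif was 40 codons long against 36 in those EGFR ligands. *Nrg2* and the EGFR ligand *Egf* lay between, both with 37 codons and a spacing of 7, 5, 10, 1 and 8. Identity between the printed 108 bases was highest for *Tgfa* and *Btc*, at 62.0%, and lowest for *Ereg* and *Tgfa*, at 45.4%. *Ereg*, *Areg* and *Btc* are neighbors on chromosome 5, where their gene models ran from 91074617 to 91093649, from 91139615 to 91148432 and from 91357261 to 91402994.

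Library depth was 28764779 to 52402410 counts. At this depth 3 counts, taken here as the floor for detection, equal 0.0572 to 0.104 CPM, that is, counts scaled to the same library total. These floors are given before the TMM scaling of library sizes. Levels are given as CPM after TMM scaling of the library sizes, and the difference between populations as log2 fold change of CD34hi over CD34lo. *Cd34*, on which the cells were sorted, was at 2490 to 2639 CPM in CD34hi and 476 to 793 CPM in CD34lo libraries, in the direction of the labels. All 8 fibroblast markers examined were detected, *Pdgfra* among them, with summed levels of 37153 to 43744 CPM in CD34hi and 50292 to 56129 CPM in CD34lo cells. Among markers of other cell types, 5 endothelial genes summed to 535 to 697 CPM in CD34hi and 55.2 to 97.1 CPM in CD34lo libraries. *Tek* alone made up 473 to 647 CPM of the sum in CD34hi libraries. *Tek* and *Kdr* were higher in CD34hi and *Pecam1* and *Cdh5* higher in CD34lo cells. *Vwf*, at 2.64 to 9.27 CPM in CD34hi and 9.81 to 22.7 CPM in CD34lo libraries, did not pass the test. The 4 pericyte markers summed to 32.5 to 44.1 CPM in CD34hi and 37.1 to 46.4 CPM in CD34lo libraries, with 1 higher in CD34hi and 3 higher in CD34lo cells. Muscle and adipocyte markers, 4 of each, reached at most 3.88 and 1.81 CPM in sum, with *Des* and *Plin1* higher in CD34lo cells, and mast cell markers at most 0.313 CPM. The part of these cells in the results was not tested, and macrophage, epithelial, keratinocyte and Schwann cell markers are given with *Ereg* and *Erbb3*.

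Of the 10 genes, 9 passed the filter on low counts, and 4 of these (44.4%) differed at an adjusted p-value under 0.05, against 35.6% of all 15219 genes tested. With the mouse pool as a block the same 4 were called, against 40.5% of all genes. *Ereg*, *Tgfa* and *Nrg2* were higher in CD34lo fibroblasts and *Erbb3* was higher in CD34hi fibroblasts, which left *Areg*, *Hbegf*, *Btc*, *Egfr* and *Erbb2* without a call. The share called was thus near that of all genes. The CPM ranges of the populations did not overlap for the same 4 genes, whereas they did not overlap for 50.1% of all genes tested. The median log2 fold change was -0.30 over the 9 genes and -0.0064 over all genes tested. These are bulk samples, in which fewer cells that express a gene and less RNA per cell cannot be told apart.

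**Figure D1:**
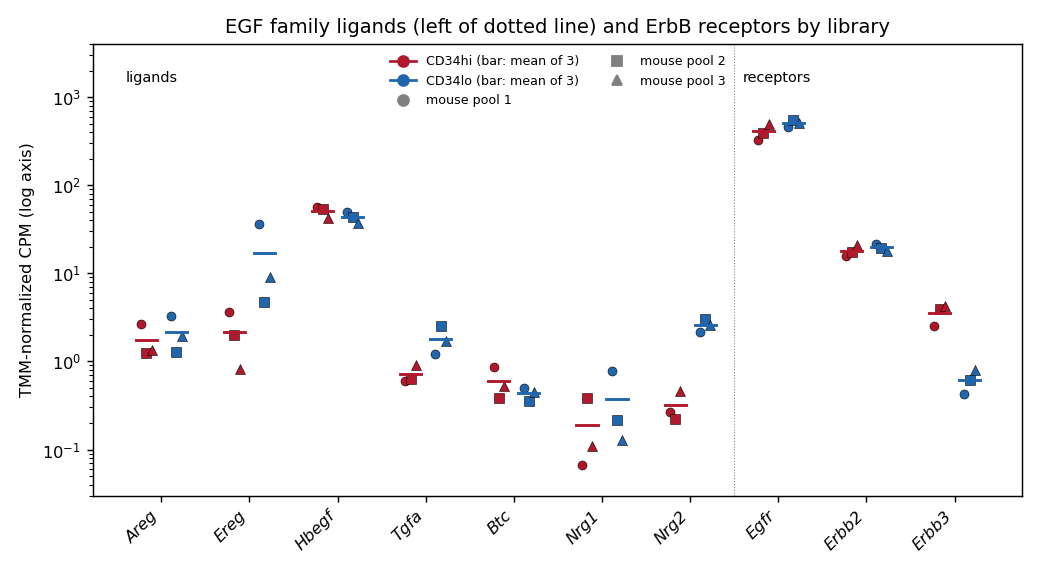
TMM-normalized CPM (log axis) of each ligand and receptor in the 3 CD34hi (red) and 3 CD34lo (blue) libraries, with bars at the means and symbols for the mouse pools. The red and blue points are apart for Ereg, Tgfa, Nrg2 and Erbb3, and Egfr, at 326 to 548 CPM, lies above every other gene.

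*Ereg* encodes epiregulin, a ligand of EGFR and ErbB4. It was at 3.65, 1.99 and 0.816 CPM in the CD34hi libraries of pools 1, 2 and 3, and at 36.4, 4.71 and 9.19 CPM in the CD34lo libraries. Each pool had more in CD34lo cells, by 9.99-fold, 2.37-fold and 11.3-fold, and the populations did not overlap, although the highest CD34hi library and the lowest CD34lo library were close. Its log2 fold change was -2.98 (SE 0.78), with an adjusted p of 0.0166 by the quasi-likelihood test of edgeR with Benjamini-Hochberg adjustment. The CD34lo library of pool 1, which is also the most deeply sequenced, held most of the signal: without it the log2 fold change was -1.67, and the adjusted p in edgeR was 0.0586. The call was also lost without pool 3 (-2.87; edgeR, adjusted p = 0.0675) and without the CD34hi library of pool 2 (-2.92; edgeR, adjusted p = 0.0519). None of these fits pairs the libraries by pool. With the mouse pool as a block, the log2 fold change of *Ereg* was -2.74 (SE 0.38; edgeR, adjusted p = 0.0003). Among 6 macrophage markers the summed level was 2.93 to 3.22 CPM in CD34hi and 27.7 to 48.8 CPM in CD34lo libraries, of which *Fcgr2b* made up 23.6 to 43.4 CPM in the latter. Within the CD34lo libraries *Fcgr2b* was at 43.4, 23.6 and 40.9 CPM in pools 1, 2 and 3, the same order of pools as *Ereg*. In the CD34hi libraries it was at 1.10, 0.193 and 0.265 CPM, in another order than *Ereg*. *C1qa* was at 0.885, 0.0719 and 1.61 CPM in the CD34lo libraries, and *Cd68* at 4.04, 3.38 and 2.54 CPM. Of the 3 macrophage markers tested, only *Fcgr2b* passed, while *Cd68* and *Fcgr1* did not. *Ptprc* and *Cd163* were at or below 0.360 CPM in every library. The part of such cells in the *Ereg* difference was not tested.

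*Tgfa*, which encodes TGFα, had low counts in every library. Its level was 0.604, 0.635 and 0.904 CPM in CD34hi and 1.20, 2.52 and 1.70 CPM in CD34lo libraries, from 23 to 70 counts a library. CD34lo cells had more in each pool, by 1.99-fold, 3.97-fold and 1.88-fold, without overlap of the populations. This gave a log2 fold change of -1.32 (SE 0.37; edgeR, adjusted p = 0.0231). This call depended on single libraries, since it was lost when any pool, the CD34hi library of pool 1 or 2, or the CD34lo library of pool 2 was left out. The log2 fold change then lay between -0.93 and -1.55 and the edgeR adjusted p rose to at most 0.190.

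*Nrg2* encodes neuregulin 2, a ligand of ErbB3 and ErbB4. It was at 0.268, 0.221 and 0.463 CPM in CD34hi and at 2.14, 3.02 and 2.60 CPM in CD34lo libraries. The lowest CD34lo library thus exceeded the highest CD34hi library severalfold, and the excess was 7.97-fold, 13.7-fold and 5.62-fold in pools 1, 2 and 3. Its log2 fold change of -2.99 (SE 0.36; edgeR, adjusted p = 0.0003) was as large in size as that of *Ereg* and had a smaller standard error. The call held in all 18 alternative analyses that gave a value for this gene, with log2 fold changes from -3.37 to -2.68. Its counts were low in CD34hi cells, at 12, 8 and 21 in pools 1, 2 and 3. The alternative filter of at least 10 counts in every library therefore removed it.

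*Hbegf* encodes HB-EGF, a ligand of EGFR and ErbB4, and was the most abundant ligand. Its levels were 56.8, 53.7 and 41.9 CPM in CD34hi and 49.6, 43.2 and 37.3 CPM in CD34lo libraries. CD34hi cells had slightly more in all 3 pools, by 1.12-fold to 1.24-fold, but the populations overlapped. A log2 fold change of 0.23 (SE 0.16) did not pass the test (edgeR, adjusted p = 0.289).

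*Areg*, which encodes amphiregulin, was low in both populations. It was at 2.68, 1.24 and 1.35 CPM in CD34hi and at 3.26, 1.30 and 1.96 CPM in CD34lo libraries. Pool 1 was highest in both populations, as it was for *Ereg* and *Hbegf*, and the spread between pools exceeded the difference between populations. Its log2 fold change was -0.32 (SE 0.42; edgeR, adjusted p = 0.592), and became 0.14 without the CD34lo library of pool 1. *Btc*, which encodes betacellulin, a ligand of EGFR and ErbB4, was at 0.872, 0.386 and 0.529 CPM in CD34hi and 0.498, 0.360 and 0.450 CPM in CD34lo libraries. Its ranges overlapped, and its log2 fold change was 0.44 (SE 0.43; edgeR, adjusted p = 0.467).

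*Nrg1* encodes neuregulin 1, a ligand of ErbB3 and ErbB4, and was not tested, since it had only 74 counts over the 6 libraries. It was at 0.0671, 0.386 and 0.110 CPM in CD34hi and at 0.775, 0.216 and 0.129 CPM in CD34lo libraries, with overlapping ranges. The gene model in the count table, at 31818028 to 31918203 on chromosome 8, spans 9.24% of the RefSeq gene, and 50.2% of the GENCODE exon bases lie inside it. Of 18 GENCODE transcripts, 7 fit within this span to 300 bases, so isoforms with distant first exons were counted only in part.

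*Egfr*, the receptor for most of these ligands, was the most abundant gene of the group. Its levels were 326, 392 and 501 CPM in CD34hi and 452, 548 and 507 CPM in CD34lo libraries. In each pool CD34lo cells had more, by 1.38-fold, 1.40-fold and 1.01-fold, yet the CD34hi library of pool 3 lay within the CD34lo range. Its difference of -0.30 on the log2 scale (SE 0.17) did not pass the test (edgeR, adjusted p = 0.209), also not with the mouse pool as a block (adjusted p = 0.0972). Without the CD34hi library of pool 3 it was -0.48, with an edgeR adjusted p of 0.0433.

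*Erbb2*, the receptor without a known ligand, was close to equal in both populations. It was at 15.5, 17.2 and 21.0 CPM in CD34hi and at 21.6, 19.6 and 17.9 CPM in CD34lo libraries. Pools 1 and 2 had more in CD34lo and pool 3 more in CD34hi cells. The log2 fold change was -0.14 (SE 0.15; edgeR, adjusted p = 0.516), and 0.055 without pool 1. The library kit does not mark strand, and *Erbb2* overlaps *Mien1* on the other strand by 9 bases, with 4545 and 3563 counts over all libraries, respectively.

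*Erbb3*, which binds neuregulins and has little kinase activity, was the receptor that passed the test. It was at 2.50, 3.95 and 4.21 CPM in CD34hi and at 0.424, 0.611 and 0.804 CPM in CD34lo libraries. CD34hi cells had 5.90-fold, 6.45-fold and 5.24-fold more in pools 1, 2 and 3, which was the most even ratio of the 4 genes that passed the test. The log2 fold change was 2.56 (SE 0.34; edgeR, adjusted p = 0.0005), and the call held in all 19 alternative analyses (2.34 to 2.81). *Erbb3* and the neuregulin *Nrg2* therefore differed in opposite directions. The counted gene model, at 128569368 to 128589501 on chromosome 10, held 66.8% of the GENCODE exon bases.

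Markers of cell types known to express *Erbb3* did not all move in the same direction. The summed level of 9 epithelial markers was 76.6 to 101 CPM in CD34hi and 80.0 to 81.2 CPM in CD34lo libraries: *Krt19* was higher in CD34hi cells (36.9 to 58.4 against 7.17 to 9.13 CPM), while *Epcam*, *Krt8*, *Krt18*, *Krt14*, *Krt5* and *Cdh1* did not pass the test and *Itga6* and *Acta2* were higher in CD34lo cells. Of the 3 keratinocyte markers, summing to 14.3 to 19.9 CPM in CD34hi and 3.60 to 7.12 CPM in CD34lo libraries, *Krtdap* and *Krt10* were higher in CD34hi cells and *Krt1* was at 0 throughout. The 5 Schwann cell markers summed to 42.7 to 52.8 CPM in CD34hi and 22.3 to 28.3 CPM in CD34lo libraries, with *Mbp* higher in CD34hi cells, 3 others higher in CD34lo cells, and *Sox10* at 0.216 to 0.804 CPM over all libraries, without a call. The part of such cells in the *Erbb3* difference was not tested.

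**Figure D2:**
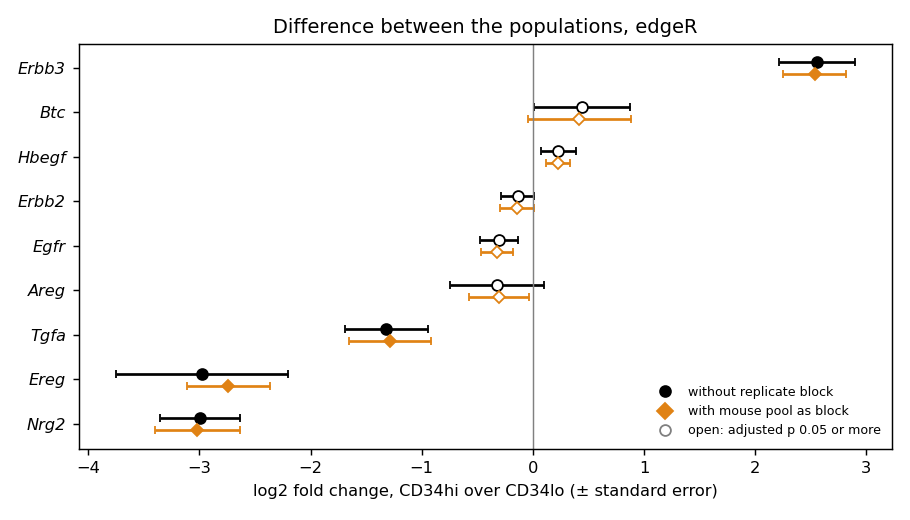
Log2 fold change of CD34hi over CD34lo with its standard error for the 9 genes tested in edgeR, without (circles) and with (diamonds) the mouse pool as a block. Filled symbols passed an adjusted p of 0.05, which Ereg (-2.98), Nrg2 (-2.99), Tgfa (-1.32) and Erbb3 (2.56) did in both fits.

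The rest of the family was low. *Egf*, the founding EGFR ligand, was at 0.402 to 1.10 CPM in CD34hi and 0.793 to 1.30 CPM in CD34lo libraries, with a log2 fold change of -0.47 (SE 0.43; edgeR, adjusted p = 0.441). *Nrg4*, a ligand of ErbB4, was at 0.760 to 1.04 and 1.29 to 1.57 CPM, without overlap, but did not pass the test at -0.65 (SE 0.29; edgeR, adjusted p = 0.116). It overlaps *Fbxo22* on the other strand, whose reads cannot be told apart in the shared bases. *Nrg3*, a further ErbB4 ligand, was at 0 in all 3 CD34hi libraries and at 1.05, 0.108 and 0.964 CPM in the CD34lo libraries. Its mean was thus at least 9.83-fold higher in CD34lo cells, with 3 counts as the floor in each CD34hi library. *Nrg3* did not pass the filter, and with no filter its adjusted p was 0.0023 in edgeR. The CD34lo library of pool 2 held only 3 of its 90 counts, the floor itself, so the bound on the means does not hold for that pool. *Erbb4*, the other neuregulin receptor, had 12 counts over all libraries and *Epgn*, which encodes epigen, had 33, so that neither could be compared.

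Levels of different genes are compared per kilobase of gene model. The counted models of *Egfr*, *Erbb3* and *Erbb2* held 62.5%, 66.8% and 99.7% of the GENCODE exon bases, which limits comparisons between them. In both populations *Egfr* led, at 63.1 ± 13.7 CPM per kb in CD34hi and 78.0 ± 7.46 in CD34lo cells (SD, n = 3), followed by *Hbegf* at 21.4 ± 3.32 and 18.2 ± 2.60 CPM per kb. Below these the order changed with the population. *Erbb2* was the third in CD34hi cells, at 3.59 ± 0.57 CPM per kb, and the fourth in CD34lo cells, at 3.94 ± 0.37. In CD34hi cells *Areg* (1.47), *Erbb3* (0.884) and *Ereg* (0.520) came next, each overlapping its neighbor in range, with *Btc*, *Tgfa*, *Nrg2* and *Nrg1* at 0.207 CPM per kb or below. In CD34lo cells *Ereg* was the third, and at 4.06 ± 4.15 CPM per kb spanned the range of *Erbb2* and overlapped that of *Areg*, while *Areg* (1.81), *Nrg2* (0.912) and *Tgfa* (0.427) did not overlap one another. *Erbb3*, at 0.153 CPM per kb, was then level with *Btc* at 0.152. The ratio of *Egfr* to *Erbb3* per kilobase was 62.1 to 81.4 in CD34hi and 394 to 665 in CD34lo libraries, whereas that of *Egfr* to *Erbb2* was 16.3 to 18.5 and 16.2 to 21.9.

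**Figure D3:**
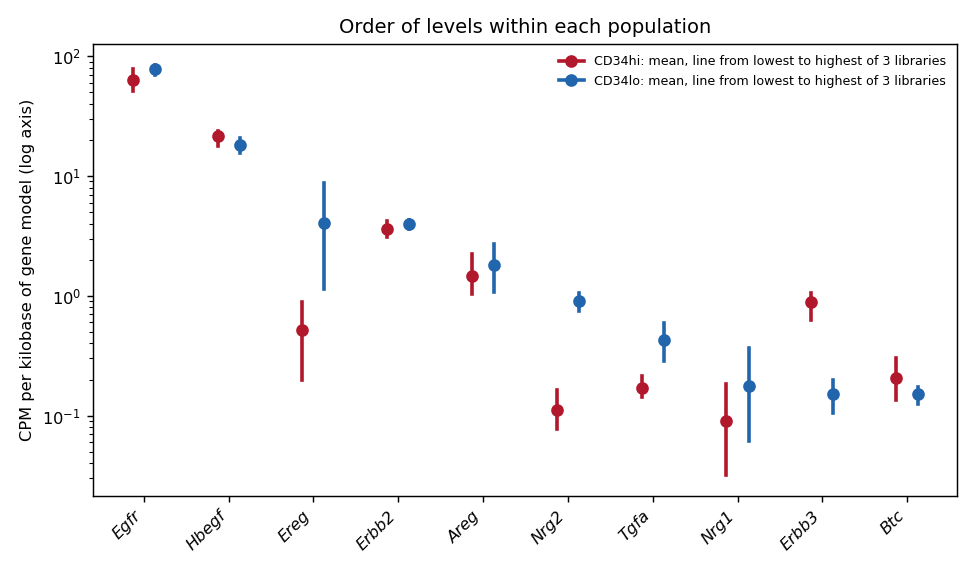
Mean level per kilobase of gene model (log axis) of each ligand and receptor in CD34hi (red) and CD34lo (blue) fibroblasts, with lines from the lowest to the highest of 3 libraries. Egfr (63.1 and 78.0 CPM per kb) and Hbegf (21.4 and 18.2) lead in both, while Erbb3 falls from 0.884 in CD34hi to 0.153 in CD34lo cells.

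The genes whose log2 CPM followed *Egfr* most closely over the 6 libraries, among 8873 genes, were *Arrdc3* (Pearson r = 0.995), *Lrrc28* (0.991) and *Cdan1* (0.989), and 43 genes reached 0.95. For *Hbegf* they were *Supt16* (0.999), *Cand1* (0.992) and *Napa* (0.991), and 101 genes reached 0.95. With 6 libraries that share pools, these values describe likeness and were not tested.

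Of 12 genes that release the ligands or restrain that release, 11 were tested, of which 5 were higher in CD34hi (45.5%) and 2 in CD34lo cells (18.2%), and 4 did not pass the test. Over all genes tested, 16.9% were higher in CD34hi and 18.7% in CD34lo cells. The median log2 fold change was 0.26. With the mouse pool as a block, the count in CD34lo cells was 3 rather than 2, the added gene being *Adam19* (-0.59; edgeR, adjusted p = 0.0157). *Adam10* and *Adam9*, which encode membrane sheddases, were at 71.2 to 80.6 and 221 to 225 CPM in CD34hi against 37.5 to 49.9 and 97.7 to 128 CPM in CD34lo cells (log2 fold changes 0.89 and 1.01; SE 0.14 and 0.13). *Timp3*, which encodes an inhibitor of metalloproteases, was also higher in CD34hi cells, at 1297 to 1920 against 665 to 868 CPM (1.18, SE 0.19). *Adam12*, a sheddase of HB-EGF, went the other way, at 28.0 to 51.8 CPM in CD34hi and 312 to 359 CPM in CD34lo cells (-3.20, SE 0.24). The adjusted p in edgeR was 0.0016 or lower for each of these 4 genes.

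Of 24 signal transducers that act below the receptors, all tested, 3 were higher in CD34hi and 6 in CD34lo cells. The 9 called make up 37.5%, near the 35.6% of all genes tested, and the median log2 fold change was -0.087. *Map2k1*, which encodes the kinase MEK1, was among those higher in CD34hi cells (0.52, SE 0.098). *Rasa1*, a GTPase-activating protein that turns RAS off (-1.36, SE 0.19), *Eps8*, an EGFR substrate (-1.21, SE 0.14), and *Pik3r1*, the regulatory subunit of PI3-kinase (-0.56, SE 0.18), were higher in CD34lo cells. *Map2k1* lost its call without pool 2, and *Pik3r1* lost its call in 7 of 9 analyses with a pool or library left out. The count of 3 fell to 0 without pool 2, and the count of 6 fell to 2 without pool 1 or pool 2. A block for the mouse pool raised the count of 3 to 4 by adding *Stat5b* (0.37; edgeR, adjusted p = 0.0281).

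Of 22 negative regulators of the receptors and of the RAS to ERK cascade, all tested, 12 were higher in CD34lo (54.5%) and 3 in CD34hi cells (13.6%), against 18.7% and 16.9% of all genes tested. The median log2 fold change was -0.56. Many of them restrain FGF and other receptor tyrosine kinases as well as EGFR. The pool block raised the count in CD34hi cells from 3 to 4 by adding *Ptpn2* (0.47; edgeR, adjusted p = 0.0073). *Dusp6*, a phosphatase of ERK, was at 7.56, 7.01 and 9.17 CPM in CD34hi and 116, 80.2 and 159.9 CPM in CD34lo libraries (-3.91, SE 0.26; edgeR, adjusted p = 1.3e-05). The Sprouty genes, feedback inhibitors of RAS signaling, did not move together. *Spry1*, at 10.2 to 19.2 against 148 to 188 CPM, and *Spry4*, at 9.48 to 11.3 against 73.5 to 85.9 CPM, were higher in CD34lo cells (-3.59, SE 0.24, and -2.95, SE 0.13). *Spry2*, at 299 to 329 against 69.1 to 82.2 CPM, was higher in CD34hi cells (2.08, SE 0.12). *Ptprj*, a receptor-type phosphatase (1.29, SE 0.16), and *Cblb*, a ubiquitin ligase of activated receptors (0.38, SE 0.12), were also higher in CD34hi cells, although *Cblb* lost its call with upper-quartile normalization (0.33; edgeR, adjusted p = 0.0591) and in 6 of 9 analyses with a pool or library left out.

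Of 15 genes commonly induced by ERK, all tested, 7 were higher in CD34lo (46.7%) and 2 in CD34hi cells (13.3%), against 18.7% and 16.9% of all genes tested. Their median log2 fold change was -0.46. Fitted with the pool as a block, the count in CD34hi cells rose from 2 to 3 by adding *Fosl1* (1.11; edgeR, adjusted p = 0.0005). *Klf10* (-1.70, SE 0.18), *Etv5*, an ETS factor (-1.44, SE 0.21), and *Ier3* (-1.22, SE 0.22) were higher in CD34lo cells, at 126 to 175, 21.4 to 33.2 and 367 to 549 CPM against 36.7 to 53.4, 8.50 to 12.1 and 140.3 to 231 CPM in CD34hi cells. *Il33*, an alarmin cytokine, and *Ptgs2*, which encodes the prostaglandin synthase COX-2, were higher in CD34hi cells. *Il33* was at 285, 285 and 167 CPM in CD34hi and 26.3, 34.7 and 32.6 CPM in CD34lo libraries (2.98, SE 0.23; edgeR, adjusted p = 2.7e-05). *Ptgs2* was at 886, 852 and 630.4 CPM in CD34hi and 162, 243 and 153 CPM in CD34lo libraries (2.09, SE 0.22; edgeR, adjusted p = 0.0001).

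**Figure D4:**
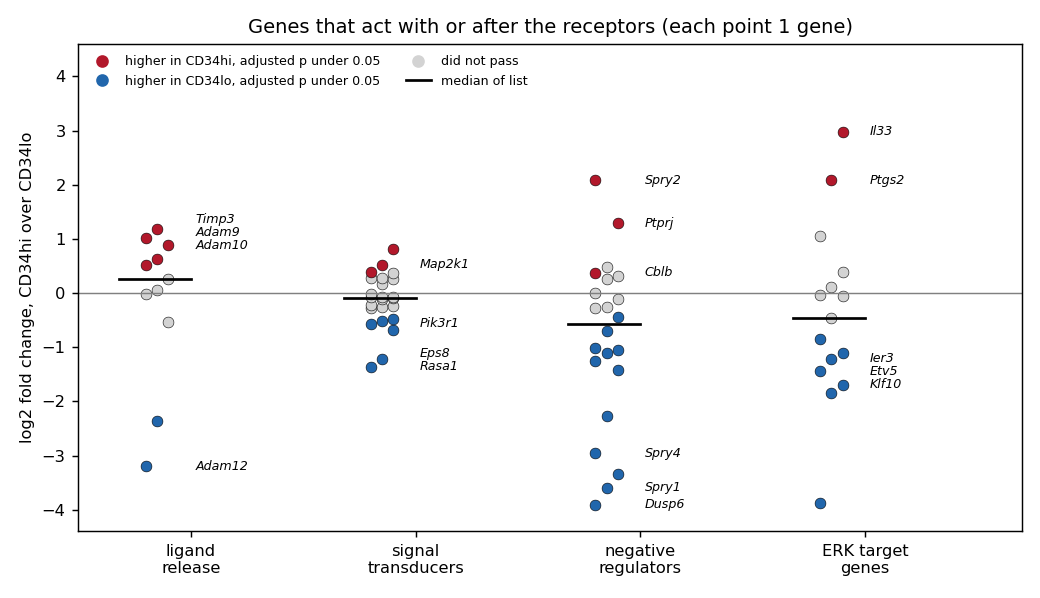
Log2 fold change of CD34hi over CD34lo for each tested gene of the 4 lists, with genes past an adjusted p of 0.05 in red (higher in CD34hi) or blue (higher in CD34lo) and black bars at the list medians. Negative regulators hold 12 blue and 3 red genes, from Dusp6 at -3.91 to Spry2 at 2.08, and signal transducers lie closer to 0.

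**Figure D5:**
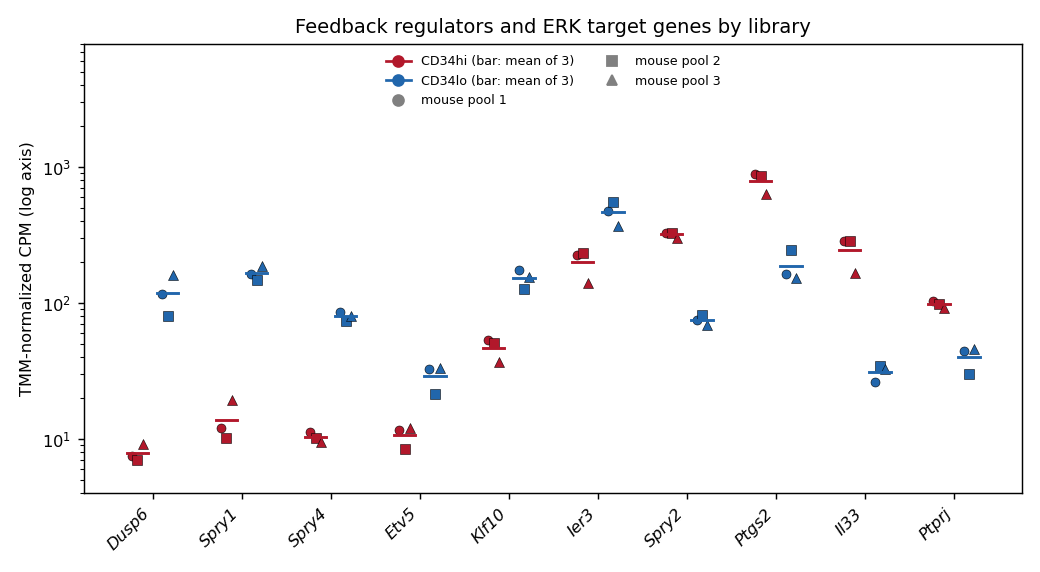
TMM-normalized CPM (log axis) of 10 feedback regulators and ERK target genes in the 3 CD34hi (red) and 3 CD34lo (blue) libraries, with bars at the means and symbols for the mouse pools. Dusp6, Spry1, Spry4, Etv5, Klf10 and Ier3 lie higher in every CD34lo library, and Spry2, Ptgs2, Il33 and Ptprj lie higher in every CD34hi library.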

How the data were processed

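FACS-sorted fibroblasts were snap frozen, and polyA RNA libraries were made with TruSeq RNA v2 and sequenced on a NextSeq 500. Reads were aligned to GRCm38/mm10 by the authors and assigned to genes with Rsubread, and the deposited values are raw counts. The counting annotation and the strand and multi-mapping settings are not given in the sources used here. Symbols came from a RefSeq gene table (GRCm38.p6), which matched 25275 of 27179 identifiers.

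These were fitted with edgeR 4.0.16 under R 4.3.3: filterByExpr by population, TMM normalization and the quasi-likelihood test over all 15219 genes kept, with Benjamini-Hochberg adjustment and a threshold of 0.05. The standard error (SE) is the size of the log2 fold change over the root of F. Replicates are pools of mice. Both populations of a pool come from the same mice, and deviations of same-pool libraries from the population means correlated at 0.279, 0.0844 and 0.243. The main fit and the fits with a pool or library left out have no term for the pool. CPM per kb divides by the gene length in the table. Floors cover counting error only. The SE, SD and ranges also include the spread between replicate libraries.

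Alternatives used limma-voom (limma 3.58.1), DESeq2 1.42.0, other normalizations and filters, the pool as a block, pools or libraries left out, and genes with a symbol only. Beside all family genes, the text names from each list the 3 called genes with the largest change in each direction (mean log2 CPM 3 or more), and the 3 genes most like *Egfr* and *Hbegf*. The genes and lists were chosen with earlier results of these data known. A few genes that meet the naming rule are left out of the text. Genes of the lists called only with the pool as a block are named too.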

Additional observations from a re-analysis of the deposited data

How the results depend on the processing

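For the 9 tested ligands and receptors, 156 of 170 alternative values kept the direction and side of the threshold of the reported value, 11 lost the call, 1 gained it and 2 changed sign: *Areg* to 0.14 without the CD34lo library of pool 1 (-0.73 to 0.14 when a pool or a library was left out) and *Erbb2* to 0.055 without pool 1 (-0.33 to 0.055), both without a call. With pool as a replicate block, the log2 fold change of *Ereg* was -2.74 (edgeR, adjusted p = 0.0003), and the block changed no call of a ligand or receptor. The count of these genes higher in CD34lo cells, 3, ranged from 1 to 4 when a pool or a library was left out and was 1 at an adjusted p under 0.01, while *Erbb3* stayed the 1 gene called higher in CD34hi cells in every alternative. Signal transducers higher in CD34hi cells ranged from 0 to 4, and those higher in CD34lo cells from 2 to 6, when a pool or a library was left out. Of all genes, 2570 were called higher in CD34hi and 2841 in CD34lo cells, with 1608 to 2456 and 1860 to 2780 when a pool or a library was left out and 1559 and 1885 at an adjusted p under 0.01. A stricter threshold makes fewer calls by construction. Leaving out libraries lowered the counts over all genes in each case. It raised the count of ligands and receptors higher in CD34lo cells to 4 without the CD34hi library of pool 3. Upper-quartile normalization moved the share of calls higher in CD34hi cells from 47.5% to 42.2%. Depth limits *Tgfa*, *Btc*, *Nrg1*, *Nrg2* and the other genes with few counts.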

Other observations

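Some genes of the lists fell outside the naming rule and were picked after their values were seen. *Etv4*, an ETS factor related to *Etv5*, was at 2.15, 0.966 and 1.46 CPM in CD34hi and 36.9, 6.76 and 23.9 CPM in CD34lo libraries, with a log2 fold change of -3.88 (SE 0.59; edgeR, adjusted p = 0.0011). *Dusp4*, a phosphatase of MAP kinases, was at 1.52 to 2.39 CPM in CD34hi and 16.1 to 22.5 CPM in CD34lo libraries (-3.34, SE 0.22). *Rhbdf2*, which encodes iRhom2, a partner of the sheddase ADAM17, was at 1.48 to 2.65 CPM in CD34hi and 8.56 to 16.1 CPM in CD34lo libraries (-2.37, SE 0.31), while *Adam17* itself was at 156 to 187 and 109 to 127 CPM (0.53, SE 0.12). *Errfi1*, which encodes the EGFR inhibitor MIG6, was the most abundant of the negative regulators, at 2777 to 3962 CPM in CD34hi and 2046 to 3462 CPM in CD34lo libraries, and did not pass the test (0.31, SE 0.23; edgeR, adjusted p = 0.330).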
